A study of Mus musculus with 32 samples.

Results

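Embryoid bodies (EBs) at day 6 of differentiation were compared after exposure to a bisphenol or to the solvent. EBs are aggregates in which mouse embryonic stem cells differentiate into the cell types of the early embryo, and these were made from the J1 line of strain 129S4/SvJae. The compared groups were 3 bisphenol libraries, 1 for each of the compounds BPA, BPF and BPS (bisphenols A, F and S) given at 100 nM, and 1 library from EBs given dimethyl sulfoxide (DMSO), the vehicle. They were taken by stage and treatment label and are 4 of the 32 libraries of the study, which sequenced RNA from 8 stages of a global EB course and a neural course under the same 4 treatments, with 1 library for each combination. All groups share the cell line, and the labels do not say which samples came from separate cultures. The p-values therefore measure only the spread between these samples, with the 3 compounds standing in as replicates of 1 class, and every difference from DMSO rests on a single DMSO library.

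Bisphenols are pairs of phenol rings joined by a bridge. The bridge is a carbon carrying a pair of methyl groups in BPA, an unsubstituted methylene in BPF and a sulfonyl group in BPS, and all are studied because BPA binds estrogen receptors. At this time of an EB course a part of the cells passes through a state like the primitive streak of the embryo, where cells leave the epiblast to become mesoderm and endoderm. Its front end forms the node, the notochord and definitive endoderm, which secrete Sonic hedgehog and inhibitors of Wnt, nodal and BMP signals, while cells that do not enter the streak become neural plate. The T-box factor T (brachyury) marks the whole streak as well as the node and notochord. The forkhead factor Foxa2 marks the front-end tissues, and Pax6, Fezf2 and Wnt8b mark neural ones.

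Depth was close to equal in the 4 libraries, with 10940376 reads assigned to genes for BPA, 10929469 for BPF, 10810537 for BPS and 10781506 for DMSO. The files list 16599 genes for BPA, 16644 for BPF, 16659 for BPS and 16485 for DMSO, and the 10 most abundant genes held 5.76% to 6.07% of the counts. Levels are given as the authors' FPKM (fragments per kilobase of transcript, scaled to the library's depth), and tests used their expected counts. No pair of libraries agreed within sampling noise. The chi-square statistic per gene was 2.826 between BPF and BPS, 3.89 between BPA and BPS, 5.452 between BPA and BPF, 5.528 between BPA and DMSO, 10.208 between BPF and DMSO and 9.997 between BPS and DMSO, so BPF and BPS were each further from DMSO than BPA was. Genes of all germ layers were detected, as the EB label implies, and pluripotency genes were still present. Naive pluripotency genes summed to 170 FPKM with BPA, 189 with BPF and 205 with BPS, against 225 FPKM with DMSO. Of 15 tested edgeR called 0, 3 had an unadjusted p under 0.05 and DESeq2 called 0. Their median log2 change was -0.33. All 3 bisphenol libraries were below DMSO for 9 of the 15 and above it for 2, against 29% and 30.9% of all genes. Over all genes edgeR called 2.18%, and 14% had an unadjusted p under 0.05.

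In the edgeR test of the 4 libraries, called genes of the primitive streak, node and definitive endoderm lists were all higher with bisphenols than with DMSO. Those of the neural plate and visceral endoderm lists were all lower, while DESeq2 also called 1 neural plate gene higher. These lists are not separate: T is on the streak and node lists, and Foxa1 and Foxa2 are on the node and endoderm lists. Lists and members were chosen with earlier results of these data known. The T gene stood at 46.36 FPKM with BPA, 55.78 with BPF and 60.48 with BPS, against 10.33 FPKM with DMSO. Sonic hedgehog (Shh) and Foxa2 were each higher in all 3 bisphenol libraries, and the forebrain factor Fezf2 was at most 1.08 FPKM with a bisphenol, against 5.06 FPKM with DMSO. Across 13701 genes tested with edgeR's quasi-likelihood test, 299 (2.18%) passed a Benjamini-Hochberg adjusted p of 0.05, of which 184 (1.34%) were higher and 115 (0.839%) lower with bisphenols. The median log2 change was 1.19 among the higher genes, -0.83 among the lower genes and 0.007 over all genes. A log2 change of 1 or more was seen for 111 of the higher genes, and of -1 or less for 42 of the lower ones.

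For all 299 genes called, the 3 bisphenol libraries lay on 1 side of the DMSO library (59.9% of all genes did), which the test itself largely requires since its spread comes from those libraries. The size of the count depends on the fit: leaving out the BPS library gave 47 calls, leaving out BPA gave 1336, and testing genes of any count gave 0, where 1921 genes had an unadjusted p under 0.05 (1918, or 14%, with the filter). A fit over all 32 libraries, in which the spread also comes from the other stages, called 435 genes (264 higher, 1.93%, and 171 lower, 1.25%), and 245 of the 299 (154 higher and 91 lower) were among them. In bulk RNA, fewer cells of a type and less RNA per cell cannot be told apart.

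**Figure D1:**
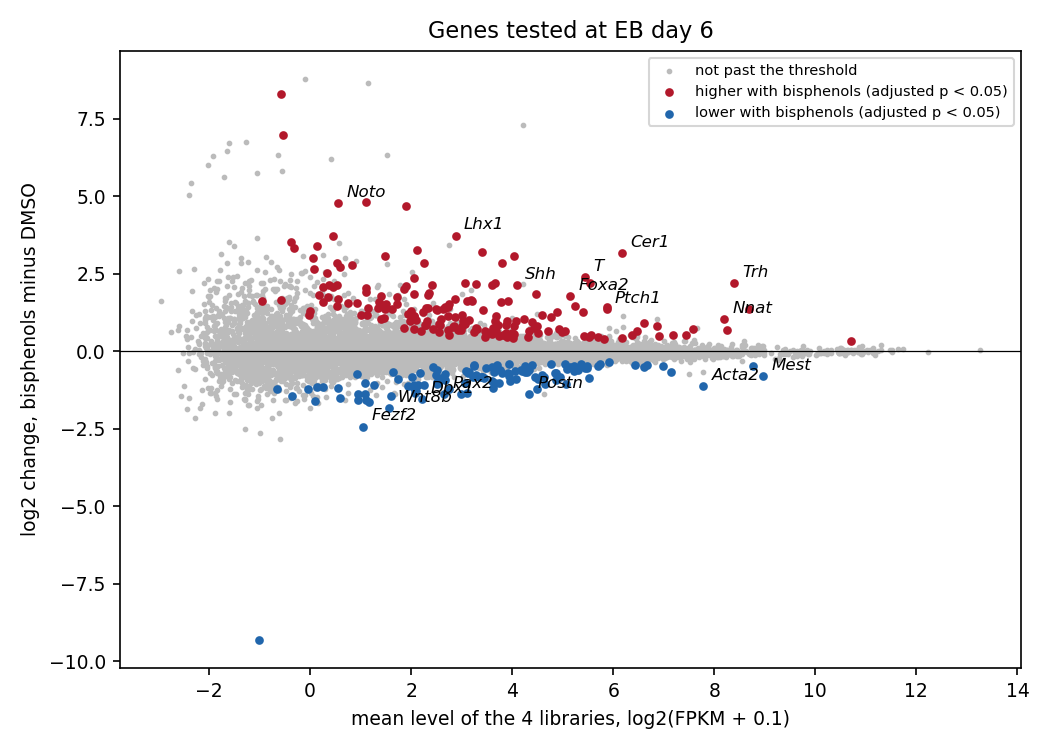
Log2 change of bisphenols over DMSO (vertical axis) against the mean level of the 4 libraries, as log2(FPKM + 0.1), for 13701 genes at EB day 6. The 184 red points passed the test as higher and the 115 blue points as lower with bisphenols, and the named genes include T, Cer1, Shh and Foxa2 above 0 and Fezf2 below it. The lowest point is a gene not matched to a name and at 0 in all 3 bisphenol libraries.

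The 12 largest increases among genes with at least 5 FPKM were led by Lhx1. Lhx1, a LIM homeobox factor of the organizer, had 4.56 FPKM with BPA, 12.54 with BPF and 11.28 with BPS, against 0.70 FPKM with DMSO. It was higher by 3.73 ± 0.65 (log2 change and SE, adjusted p = 0.017). Cer1, a secreted inhibitor of nodal, BMP and Wnt, had 62.46 FPKM with BPA, 114.28 with BPF and 99.63 with BPS, against 10.17 FPKM with DMSO, a log2 change of 3.18 ± 0.33 (adjusted p = 0.0023). For both genes every bisphenol library was above DMSO, as the choice of the 12 required, and BPA was the lowest of the 3.

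Cfc1, a co-receptor of nodal, had 9.14 FPKM with BPA, 17.76 with BPF and 13.60 with BPS, against 1.45 FPKM with DMSO (log2 change 3.20 ± 0.45, adjusted p = 0.007). Lgr5, a receptor for R-spondins that marks Wnt-responsive progenitors, had 3.78 FPKM with BPA, 6.20 with BPF and 6.33 with BPS, against 0.56 FPKM with DMSO (log2 change 3.26 ± 0.37, adjusted p = 0.0026). Here too the choice of the 12 required every bisphenol library to lie above DMSO. Trh, which encodes thyrotropin-releasing hormone and is made in definitive endoderm, was the most abundant of the 12, at 274.53 FPKM with BPA, 470.43 with BPF and 509.97 with BPS, against 89.83 FPKM with DMSO. Its log2 change was 2.21 ± 0.29 (adjusted p = 0.0049). Cyp26a1, the enzyme that degrades retinoic acid, had 37.40, 70.17 and 64.83 FPKM with BPA, BPF and BPS, against 12.32 FPKM with DMSO.

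The rest of the 12 were T, Samd3, the homeobox gene Alx1, the matrix protein gene Smoc2, the apelin receptor gene Aplnr, and Hhex, a homeobox factor of anterior endoderm. T (Entrez 20997, chr17:8434423-8442496) changed by 2.39 ± 0.16 on the log2 scale (adjusted p = 0.00032). Samd3 had 16.41, 23.86 and 22.43 FPKM with BPA, BPF and BPS, against 2.50 FPKM with DMSO, and Hhex had 6.16, 12.60 and 12.10 FPKM, against 2.22 FPKM with DMSO. Aplnr, whose ligands guide migrating mesendoderm cells, had 10.58, 17.60 and 18.65 FPKM, against 3.35 FPKM with DMSO. Alx1 and Smoc2 were at most 0.98 FPKM with DMSO and at least 3.43 FPKM in every bisphenol library. Coordinates here and below are those of the RefSeq annotation of GRCm38.p6, the same assembly as the mm10 named by the submitters.

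**Figure D2:**
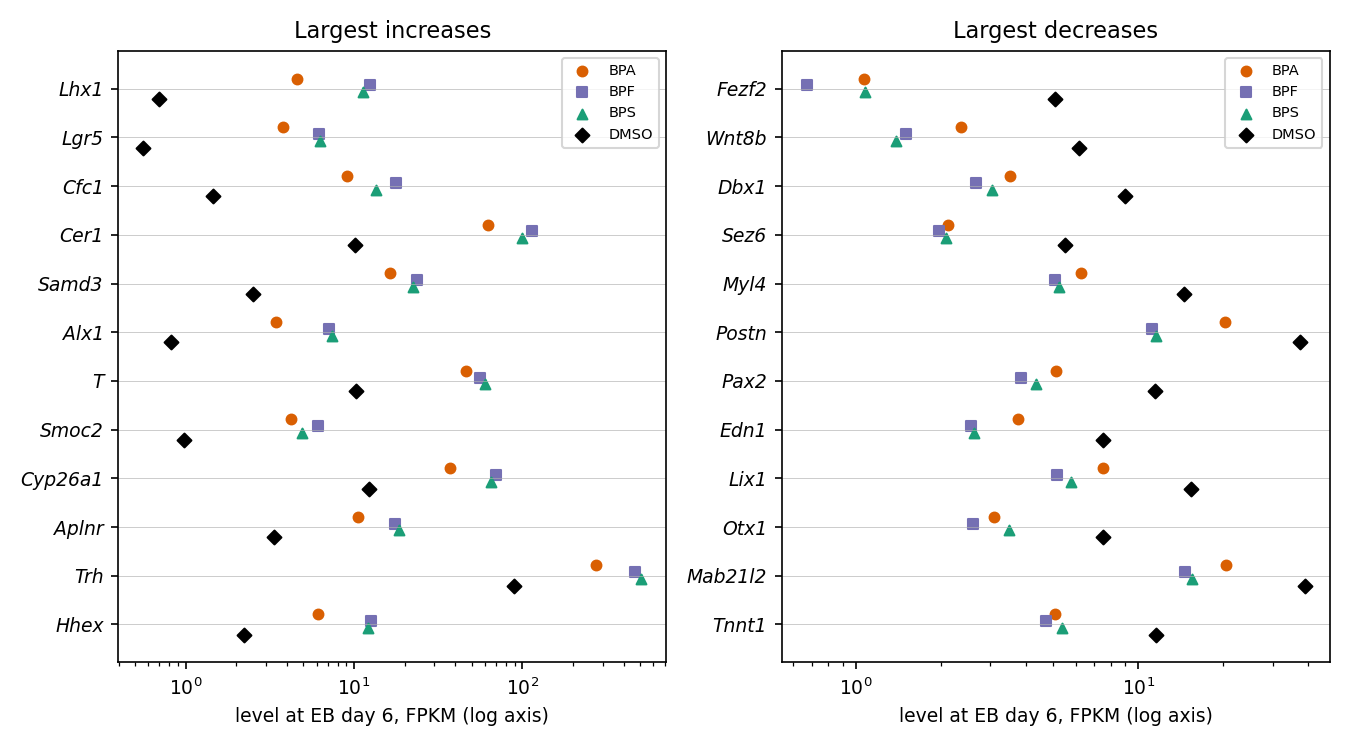
FPKM on a log axis in each of the 4 libraries at EB day 6, for the 12 genes with the largest increases (left) and the 12 with the largest decreases (right). Each gene has 1 point per library. Genes were chosen so that every bisphenol point lies right of the DMSO point on the left panel and left of it on the right panel.

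The largest decreases were those of Fezf2, Wnt8b and Dbx1. Fezf2 (Entrez 54713, chr14:12338992-12346803), a zinc finger factor of the forebrain, had 1.07 FPKM with BPA, 0.67 with BPF and 1.08 with BPS, against 5.06 FPKM with DMSO, and fell by 2.43 ± 0.27 on the log2 scale (adjusted p = 0.0024). Wnt8b, a Wnt ligand of the dorsal forebrain and midbrain, had 2.36, 1.51 and 1.39 FPKM with BPA, BPF and BPS, against 6.16 FPKM with DMSO. Dbx1, a homeobox factor of neural tube progenitors, had 3.53, 2.66 and 3.04 FPKM, against 8.98 FPKM with DMSO. All bisphenol libraries were below DMSO for these genes, as the choice of genes required. Log2 changes were -1.82 ± 0.24 for Wnt8b (adjusted p = 0.005) and -1.55 ± 0.19 for Dbx1 (adjusted p = 0.0035).

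Sez6, which encodes a neuronal membrane protein, had 2.12, 1.97 and 2.09 FPKM with BPA, BPF and BPS, against 5.52 FPKM with DMSO. Pax2 and Otx1, factors of the midbrain-hindbrain border and the anterior brain, had 5.13 and 3.08 FPKM with BPA, 3.84 and 2.60 with BPF, 4.34 and 3.50 with BPS, and 11.47 and 7.48 FPKM with DMSO. Mab21l2, a gene of eye and midbrain development, had 20.46, 14.62 and 15.57 FPKM with BPA, BPF and BPS, against 38.93 FPKM with DMSO. Lix1 and the endothelin gene Edn1 were also among the 12, as were 3 genes of contractile and matrix tissue, Postn (periostin), Tnnt1 (a troponin) and Myl4 (an atrial myosin light chain). Postn had 20.34, 11.15 and 11.52 FPKM, against 37.30 FPKM with DMSO. For Myl4 the fit over 32 libraries gave an adjusted p of 0.37. Postn and Tnnt1 had adjusted p of 0.34 and 0.072 with DESeq2.

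Primitive streak genes were taken as 20 genes, of which 17 passed the filter on low counts. Of these, 5 (T, Lhx1, Eomes, Gsc and Mesp1) were higher and 0 lower, with a median log2 change of 0.68. Over all genes 1.34% were higher and 0.839% lower, and these shares also stand beside the list counts that follow. All 3 bisphenol libraries were above DMSO for 10 of the 17 and below it for 4, against 30.9% and 29% of all genes. Eomes, a T-box factor needed for mesoderm and endoderm, had 7.49, 12.58 and 12.81 FPKM with BPA, BPF and BPS, against 3.51 FPKM with DMSO (log2 change 1.64 ± 0.29, adjusted p = 0.018). Gsc, an organizer homeobox factor, had 6.65, 8.23 and 8.32 FPKM, against 2.86 FPKM with DMSO (log2 change 1.43 ± 0.26, adjusted p = 0.021). Mesp1, the earliest marker of cardiac mesoderm, had 18, 51 and 27 counts with BPA, BPF and BPS and 1 count with DMSO, a ratio of 31.6 with a 95% counting interval of 5.53 to 1260. With DESeq2, 3 of the list were called, and without the BPS library 1 was.

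The node, notochord and floor plate list held 20 genes, of which 18 were tested, 7 were higher, 0 were lower and the median log2 change was 0.81. Shh (Entrez 20423, chr5:28456840-28467101), the ligand of the hedgehog pathway, had 18.11 FPKM with BPA, 22.40 with BPF and 22.28 with BPS, against 4.74 FPKM with DMSO. It was higher by 2.14 ± 0.16 (log2, adjusted p = 0.00035). Foxa2 (Entrez 15376, chr2:148042877-148046969) had 38.84, 45.09 and 44.51 FPKM, against 12.49 FPKM with DMSO, a log2 change of 1.77 ± 0.13 (adjusted p = 0.00032). The bisphenol libraries lay close together and far above DMSO for both genes. Noto, a homeobox factor of the node, had 28, 35 and 31 counts with BPA, BPF and BPS and 1 count with DMSO, a ratio of 30.9 (5.41 to 1230). The BMP inhibitor Chrd had 3.61, 4.16 and 3.82 FPKM, against 1.12 FPKM with DMSO, and Foxj1, which drives motile cilia, had 5.36, 7.57 and 6.74 FPKM, against 2.52 FPKM with DMSO. Of the 7 called, 4 were called without the BPS library.

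Definitive endoderm and gut genes were listed as 19, and all 19 were tested. Higher with bisphenols were 7 and lower 0, the median log2 change was 0.81, and 14 of the 19 had all 3 bisphenol libraries above DMSO, against 30.9% of all genes. Sox17, the factor that specifies endoderm, had 4.27, 7.90 and 7.16 FPKM with BPA, BPF and BPS, against 1.47 FPKM with DMSO (log2 change 2.15 ± 0.35, adjusted p = 0.015). Foxa1 had 3.70, 5.90 and 5.33 FPKM, against 1.39 FPKM with DMSO. Prdm1, a transcriptional repressor, had 1.63, 3.10 and 2.80 FPKM, against 0.67 FPKM with DMSO. The other called members were Hhex, Trh, Foxa2 and Sox9. Without the BPS library 2 of the 7 were called.

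Extra-embryonic endoderm shares many markers with gut endoderm, and its list had a median below 0. Of 24 visceral and parietal endoderm genes, 22 were tested, 0 were higher and 4 lower, the median log2 change was -0.52, and 17 had all 3 bisphenol libraries below DMSO, against 29% of all genes. Dab2, an endocytic adaptor, had 15.36, 11.42 and 11.78 FPKM with BPA, BPF and BPS, against 22.58 FPKM with DMSO (log2 change -0.79 ± 0.14, adjusted p = 0.02). The endocytic receptor gene Cubn and the basement membrane genes Col4a1 and Col4a2 were the other 3. In the fit over 32 libraries they had adjusted p of 0.48, 0.43 and 0.38, and 1 gene of the list was called, and 0 were without the BPS library. The summed FPKM of the 24 genes was 477 with BPA, 530 with BPF, 495 with BPS and 623 with DMSO. The part of these cells in the other differences was not tested.

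Of 22 paraxial mesoderm genes 13 were tested, and Foxc2, Dll3 and Cyp26a1 were higher and 0 lower, with a median log2 change of 0.94. The list was split. All 3 bisphenol libraries were above DMSO for 7 of the 13 and below it for 5, against 30.9% and 29% of all genes. In the fit over 32 libraries 3 members were called higher and 1 lower. Dll3, a Notch ligand of the somite clock, had 9.83, 14.74 and 12.81 FPKM with BPA, BPF and BPS, against 4.97 FPKM with DMSO. Foxc2 had 1.86, 4.50 and 4.02 FPKM, against 0.40 FPKM with DMSO. Among 24 lateral and cardiac mesoderm genes tested, 2 were higher (Mesp1 and Tbx20) and 2 lower (the sarcomere genes Myh7 and Myl4), and in the fit over 32 libraries Tbx20 and Myh7 had adjusted p of 0.1 and 0.64. Of 13 blood and endothelium genes tested, the VEGF receptor gene Flt1 alone was called, with 3.77, 4.93 and 4.96 FPKM, against 1.82 FPKM with DMSO. Leaving out BPS left 0 genes of these 3 lists called.

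Of 30 neural plate and progenitor genes, 26 were tested, 0 were higher and 6 lower, and the median log2 change was -0.24. DESeq2 called 1 higher and 5 lower, and the fit over 32 libraries 1 higher and 6 lower. Pax6, a factor of neural progenitors, had 1.35, 1.20 and 1.53 FPKM with BPA, BPF and BPS, against 4.09 FPKM with DMSO (log2 change -1.58 ± 0.20, adjusted p = 0.0043). Sox3, which maintains progenitors, had 18.26, 19.19 and 17.02 FPKM, against 32.13 FPKM with DMSO (log2 change -0.83 ± 0.10, adjusted p = 0.0035). Irx1, a homeobox factor of neural patterning, had 10.54, 10.46 and 10.93 FPKM, against 21.43 FPKM with DMSO. The others were Dbx1, Sox1 and Pax7, and for Pax7 the adjusted p was 0.049, and 0.12 in the fit over 32 libraries. When BPS was left out, 3 of the 6 were called.

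Forebrain and eye field genes numbered 20, of which 15 were tested and 5 were lower. Emx2, a factor of the dorsal forebrain, had 0.88, 0.98 and 1.03 FPKM with BPA, BPF and BPS, against 2.74 FPKM with DMSO. Fezf1 had 0.67, 0.55 and 0.72 FPKM, against 1.96 FPKM with DMSO. The calls of Emx2 and Fezf1 were lost with DESeq2 (adjusted p of 0.11 and 0.32). Lhx2, Otx1 and Fezf2 were the other 3 lower genes. Six3, a factor of the anterior plate and eye field, went against these: it had 5.80, 8.20 and 8.67 FPKM, against 3.41 FPKM with DMSO, and was higher by 1.15 ± 0.22 (log2, adjusted p = 0.028). The midbrain and isthmus list had 4 lower of 20 tested. Wnt1, the isthmus signal, had 22.22, 16.93 and 20.08 FPKM with BPA, BPF and BPS, against 40.65 FPKM with DMSO (log2 change -1.05 ± 0.12, adjusted p = 0.0033). Pax2, En1 and Sp8 were lower as well, and En1 and Sp8 had adjusted p of 0.068 and 0.06 in the fit over 32 libraries. Spry2, a feedback inhibitor of FGF signalling on the same list, was higher, with 34.57, 32.81 and 36.18 FPKM, against 22.56 FPKM with DMSO. Without the BPS library 2 lower and 0 higher members were called in each of these lists.

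Of 19 proneural and early neuron genes tested 1 (Dll3) was higher and 0 were lower, with a median log2 change of 0.39. Neural crest had 1 higher (Sox9) and 1 lower (Pax7) of 19 tested, and 10 of the 19 had an unadjusted p under 0.05, against 14% of all genes. With BPS left out, 0 genes of these 2 lists were called.

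**Figure D3:**
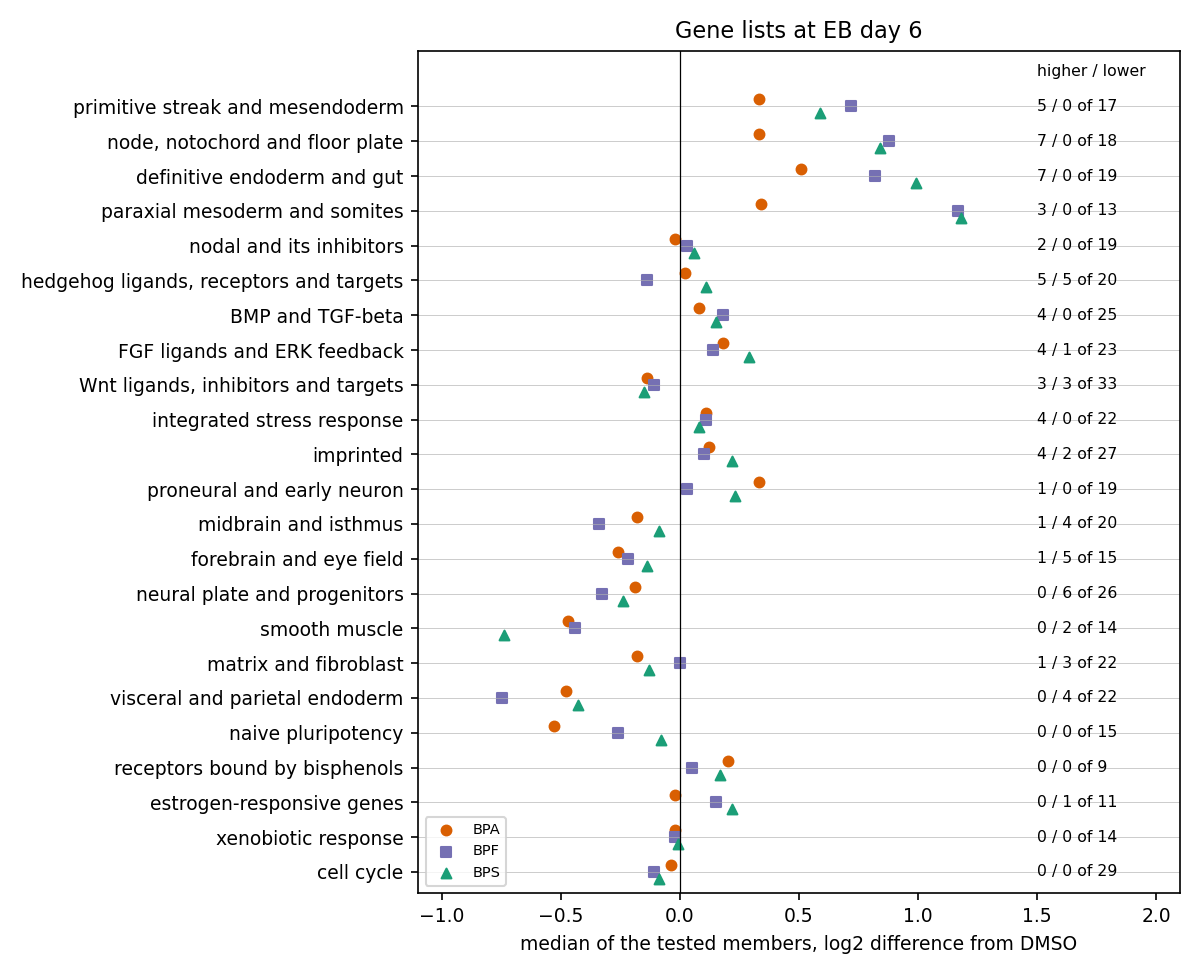
Median log2 difference from DMSO of the tested members of gene lists at EB day 6, with 1 point for each compound (BPA, BPF, BPS). The figures on the right give the members called higher, called lower and tested; over the class, the node, definitive endoderm and paraxial mesoderm lists have the highest medians of the lists drawn, and smooth muscle and visceral endoderm the lowest.

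Hedgehog signalling works through the ligand Shh, its receptor and inhibitor Ptch1, and the Gli factors, and Ptch1, Gli1 and Hhip are classic target genes. Of 21 listed genes 20 were tested, of which 5 (Shh, Ptch1, Gli1, Hhip and Foxc2) were higher and 5 lower, with a median log2 change of 0 to 2 decimals. Ptch1 had 63.33, 70.02 and 73.69 FPKM with BPA, BPF and BPS, against 26.69 FPKM with DMSO, and was higher by 1.37 ± 0.10 (log2, adjusted p = 0.00032). Gli1, the activator, had 7.82, 6.89 and 7.52 FPKM, against 2.81 FPKM with DMSO (log2 change 1.39 ± 0.15, adjusted p = 0.0024). The ligand and both of these genes were higher in every bisphenol library. Hhip, a decoy that binds the ligand, had 0.48, 0.45 and 0.57 FPKM with BPA, BPF and BPS, against 0.16 FPKM with DMSO.

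The members that fell were the factors Gli2 and Gli3, the co-receptor Gas1 and the Scube1 and Scube2 genes, whose products help release the ligand. Gas1 had 16.67, 15.50 and 15.67 FPKM with BPA, BPF and BPS, against 24.52 FPKM with DMSO (log2 change -0.63 ± 0.09, adjusted p = 0.0085). Gli3, the main repressor, had 11.73, 9.96 and 11.32 FPKM, against 15.36 FPKM with DMSO, and Gli2 had 8.27, 9.01 and 8.69 FPKM, against 11.71 FPKM with DMSO. Scube2 had 1.42, 1.45 and 1.03 FPKM, against 3.37 FPKM with DMSO. Ptch1, Gli2, Gli3, Gas1 and Scube1 are named here after their values were seen. Without the BPS library 3 of the 5 higher and 0 of the 5 lower members were called.

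Wnt genes were split, with 3 of 33 tested higher (Dkk1, Rspo3 and Lgr5) and 3 lower (Wnt1, Wnt8b and Axin2). Dkk1, a secreted Wnt inhibitor, had 39.52, 53.60 and 55.55 FPKM with BPA, BPF and BPS, against 20.38 FPKM with DMSO (log2 change 1.28 ± 0.18, adjusted p = 0.0068). Rspo3, a ligand that amplifies Wnt signalling, had 9.18, 10.97 and 10.56 FPKM, against 3.34 FPKM with DMSO (log2 change 1.61 ± 0.17, adjusted p = 0.0024). Of 25 BMP and TGF-beta genes tested 4 were higher and 0 lower. Tgfb2 had 22.18, 22.70 and 26.05 FPKM, against 12.29 FPKM with DMSO, while Bmp2 and Bmp7 had adjusted p of 0.053 and 0.13 in the fit over 32 libraries. Of these 4, 2 were called without the BPS library.

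FGF signalling genes had 4 higher (Fgf5, Dusp4, Spry2 and Etv1) and 1 lower (Fgfr2) of 23 tested. Fgf5, a marker of the primed epiblast, had 29.41, 38.57 and 35.17 FPKM with BPA, BPF and BPS, against 14.14 FPKM with DMSO (log2 change 1.27 ± 0.15, adjusted p = 0.0033). Dusp4, a phosphatase induced by ERK, had 25.72, 34.30 and 34.39 FPKM, against 14.63 FPKM with DMSO. Etv1 and Fgfr2 had adjusted p of 0.053 and 0.063 in the fit over 32 libraries. The nodal list gave 2 calls of 19 tested, Cer1 and the co-receptor Tdgf1, and for Tdgf1 the fit over 32 libraries gave an adjusted p of 0.072. Without the BPS library 1 higher and 0 lower FGF genes and 1 gene of the nodal list were called.

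Of 14 smooth muscle genes tested 2 were called lower, and the median log2 change was -0.57. All 3 bisphenol libraries were below DMSO for 12 of the 14, against 29% of all genes. Acta2 (smooth muscle actin) had 202.77 FPKM with BPA, 186.45 with BPF and 120.73 with BPS, against 370.51 FPKM with DMSO (log2 change -1.13 ± 0.20, adjusted p = 0.018), and Myl9 had 29.50, 27.63 and 19.79 FPKM, against 45.51 FPKM with DMSO. The 14 genes together summed to 1290 FPKM with BPA, 1250 with BPF and 994 with BPS, against 1680 FPKM with DMSO. Of 22 matrix and fibroblast genes tested 1 (Fbn2) was higher and 3 (Col1a1, Col1a2 and Postn) were lower. Col1a2 had 31.72, 25.74 and 21.37 FPKM, against 54.23 FPKM with DMSO (log2 change -1.05 ± 0.15, adjusted p = 0.008). Leaving out BPS, 1 smooth muscle gene and 2 lower matrix genes were called. With DESeq2 the calls of Acta2, Col1a1 and Postn were lost (adjusted p of 0.23, 0.19 and 0.34), while those of Myl9 and Col1a2 were kept. The part of smooth muscle and fibroblast cells in the other differences was not tested.

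Bisphenols are known to bind several nuclear receptors, and the estrogen receptor genes were at or near 0. Esr1 stood at 0 with each bisphenol and at 0.01 FPKM with DMSO. Esr2 had 0.12, 0.23 and 0.22 FPKM with BPA, BPF and BPS, against 0.20 FPKM with DMSO, and the membrane receptor gene Gper1 had 0.04, 0.04 and 0.07 FPKM, against 0.18 FPKM with DMSO. These 3 were under the filter and were not tested. The estrogen-related receptor gene Esrra had 7.45, 7.06 and 6.40 FPKM, against 6.34 FPKM with DMSO, and Esrrb had 3.70, 3.92 and 5.94 FPKM, against 5.94 FPKM with DMSO. Of 9 receptor genes tested (Esrra, Esrrb, Esrrg, Thra, Nr1i3, Nr3c1, Pgr, Ahr and Arnt) edgeR called 0, 0 had an unadjusted p under 0.05, and DESeq2 called 0. Over all genes edgeR called 2.18% and 14% had an unadjusted p under 0.05, so 0 of 9 says little.

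Of 11 estrogen-responsive genes tested 0 were higher and 1, the chemokine gene Cxcl12, was lower, with 13.53, 8.19 and 8.09 FPKM with BPA, BPF and BPS, against 20.28 FPKM with DMSO (adjusted p = 0.049). That call was lost with DESeq2 (adjusted p = 0.64) and without the BPS library (0.24). Of 14 xenobiotic response genes tested, which include targets of the Ah receptor, edgeR called 0, 2 had an unadjusted p under 0.05 and DESeq2 called 0. The edgeR shares over all genes were 2.18% called and 14% with an unadjusted p under 0.05. The closest member of this list, Cyp1b1, had 1.96, 1.62 and 1.46 FPKM, against 2.54 FPKM with DMSO (adjusted p = 0.2).

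Promoter windows show where the factors named above have a matching motif, as a description only. RefSeq windows were found for 130 of the 184 higher and 86 of the 115 lower genes, under 80% of each set, so a check of motif shares over the sets is void. The motif TCACACCT (T-box) occurs in 1.14% of all 27025 windows of 250 bases before a start, and TGTTTAC (FOXA) in 3.09%, on either strand. The FOXA motif is in 5 of the 130 windows of higher genes (3.85%) and 3 of the 86 of lower genes (3.49%). The T-box motif is in 2 of the 130 (1.54%) and 0 of the 86. In the 10837 windows of tested genes the shares are 2.09% for FOXA and 0.609% for T-box. Other motifs searched were those of GLI, the estrogen receptor and the Ah receptor. The GLI motif and the estrogen response element are in 0 of the 130 and 0 of the 86 windows. In tested genes their shares are 0.166% and 0%. The Ah receptor motif is in 4.62% of the 130 and 6.98% of the 86, against 6.78% in tested genes. Of T-box and FOXA matches, the higher genes Samd3, Foxa1 and Prdm1 hold 1 each and the lower gene Dlk1 holds 2. These are shown in capitals 5′ to 3′ on the gene's strand, in sequence from RefSeq on GRCm38.p6.
Samd3, chr10:26229457-26229706, plus strand: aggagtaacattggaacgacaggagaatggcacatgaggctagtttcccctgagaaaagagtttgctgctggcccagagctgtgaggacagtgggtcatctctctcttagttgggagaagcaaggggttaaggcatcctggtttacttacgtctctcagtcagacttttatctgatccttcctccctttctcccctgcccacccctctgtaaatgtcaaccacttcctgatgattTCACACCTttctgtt
Foxa1, chr12:57546112-57546361, minus strand: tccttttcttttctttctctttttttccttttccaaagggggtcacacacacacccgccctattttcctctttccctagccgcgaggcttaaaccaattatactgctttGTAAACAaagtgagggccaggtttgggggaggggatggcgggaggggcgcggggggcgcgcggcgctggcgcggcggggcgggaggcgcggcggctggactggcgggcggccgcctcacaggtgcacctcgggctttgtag
Prdm1, chr10:44458749-44458998, minus strand: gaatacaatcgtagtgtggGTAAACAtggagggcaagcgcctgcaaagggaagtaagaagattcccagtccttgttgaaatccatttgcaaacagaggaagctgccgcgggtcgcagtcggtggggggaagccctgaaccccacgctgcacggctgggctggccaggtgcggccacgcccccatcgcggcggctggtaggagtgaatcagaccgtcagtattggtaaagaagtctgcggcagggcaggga
Dlk1, chr12:109452573-109452822, plus strand: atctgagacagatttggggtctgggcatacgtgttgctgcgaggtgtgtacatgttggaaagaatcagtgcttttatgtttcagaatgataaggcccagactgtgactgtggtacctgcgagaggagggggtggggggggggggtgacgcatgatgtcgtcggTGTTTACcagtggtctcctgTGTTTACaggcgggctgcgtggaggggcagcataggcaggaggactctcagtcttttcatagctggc
The T-box match of Samd3 begins 15 bases before this annotated start. The FOXA match, read on the other strand, begins 141 bases before the start in Foxa1 and 231 bases before it in Prdm1. In Dlk1 matches begin 87 and 67 bases before the start. The edgeR call of Dlk1 as lower had an adjusted p of 0.032, and 0.27 in the fit over 32 libraries. Atf4, another gene called higher, has a T-box match 202 bases before its start and an Ah receptor match, with the sequence not shown. Ah receptor matches are also in the windows of Six3, called higher, and of Pax6, Plk2 and Scube1, called lower.

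Each compound was then set against DMSO on its own, with the spread taken from the bisphenol libraries of the other 7 stages. BPA had 49 genes higher (0.358%) and 18 lower (0.131%), BPF had 283 higher (2.07%) and 129 lower (0.942%), and BPS had 236 higher (1.72%) and 103 lower (0.752%). In either direction these were 0.489% of genes for BPA, 3.01% for BPF and 2.47% for BPS. With no test, an absolute log2 difference of 1 or more was reached by 3.69% of genes for BPA, 5.85% for BPF and 5.71% for BPS. The 3 compounds were given at the same dose and day, and all share the same DMSO library. Among the 184 higher genes of the class test, the median log2 difference from DMSO was 0.96 with BPA, 1.33 with BPF and 1.28 with BPS. Among the 115 lower genes it was -0.64 with BPA, -0.92 with BPF and -0.92 with BPS. BPA was the lowest of the 3 bisphenols in 148 of the 184 higher genes (80.4%) and closest to DMSO in 78 of the 115 lower genes (67.8%), against 36% and 36.7% of all genes for which BPA was lowest or highest.

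**Figure D4:**
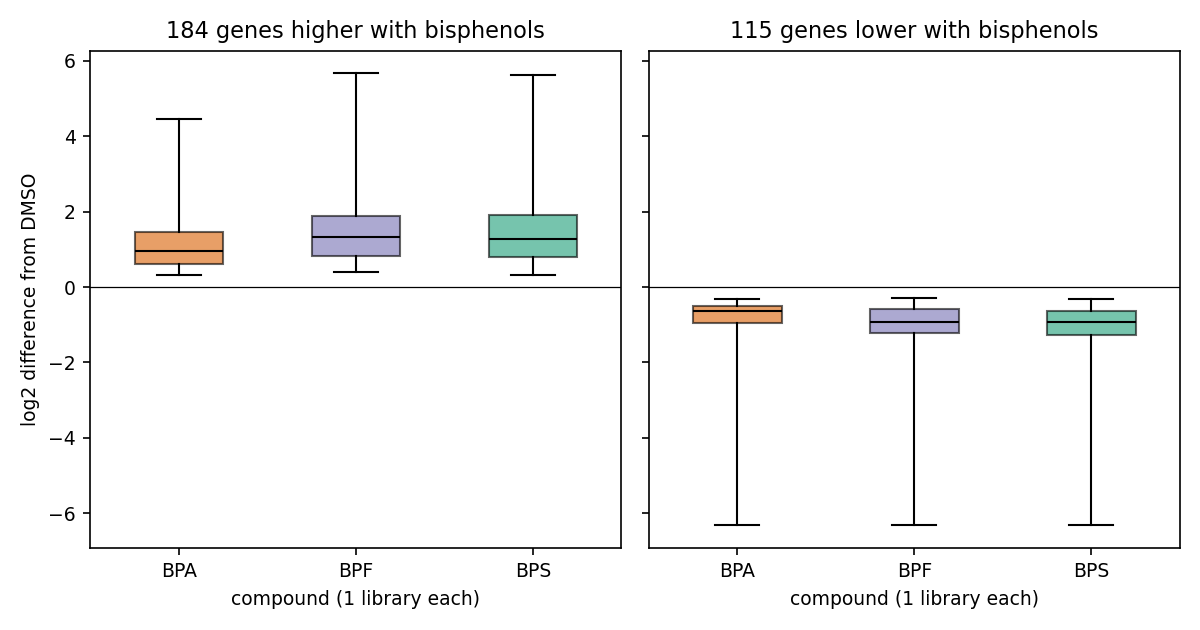
Log2 difference from DMSO of the 184 higher (left) and 115 lower (right) genes for BPA, BPF and BPS, 1 library each. Boxes span the quartiles with the median as a line, whiskers span the range; the medians are 0.96, 1.33 and 1.28 for the higher genes and -0.64, -0.92 and -0.92 for the lower.

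The difference between compounds was tested in 3 pairs, with p-values adjusted over genes and pairs together. Each compound has 1 library at day 6, so a compound cannot be told apart from its library or culture. BPA and BPF, which differ in the methyl groups of the bridge, differed in 4 genes (0.0292%), all lower with BPA. BPA and BPS, which differ in a carbon against a sulfonyl bridge, differed in 3 genes (0.0219%), again all lower with BPA. Cpm, which encodes carboxypeptidase M, had 9.37 FPKM with BPA, 28.93 with BPF and 29.99 with BPS, against 5.07 FPKM with DMSO, and in the class test its adjusted p was 0.085. It was lower with BPA than with BPF by a log2 difference of -1.63 (95% interval -2.05 to -1.22, adjusted p = 0.00056) and than with BPS by -1.68 (-2.09 to -1.27, adjusted p = 0.00056). Fzd5, a Wnt receptor gene, had 9.03, 18.75 and 17.26 FPKM with BPA, BPF and BPS, against 3.42 FPKM with DMSO, and BPA differed by -1.06 from BPF (adjusted p = 0.01) and by -0.94 from BPS (adjusted p = 0.033).

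Lhx1 was the other gene called in both pairs, by -1.46 (-1.92 to -1, adjusted p = 0.01) against BPF and -1.30 (-1.77 to -0.84, adjusted p = 0.037) against BPS. Ube2ql1, which had 1.71 FPKM with BPA and 5.47 with BPF, was called against BPF alone (adjusted p = 0.011). With the spread from EB libraries only, 1 gene was called in each of these pairs. BPF and BPS, with a methylene against a sulfonyl bridge, differed in 0 genes by edgeR, while 294 (2.15%) had an unadjusted p under 0.05. That was so for 828 genes (6.04%) between BPA and BPF and 531 (3.88%) between BPA and BPS. With no test, an absolute log2 difference of 1 or more was reached by 2.54% of genes for BPA against BPF, 2.34% for BPA against BPS and 1.74% for BPF against BPS. The median half-width of the 95% interval of a pair difference was 0.38 on the log2 scale, so for a typical gene a difference within that width was not resolved. For Shh the BPF minus BPS difference was 0.01 (-0.40 to 0.43), for T -0.11 (-0.72 to 0.50) and for Cer1 0.20 (-0.32 to 0.73). For Shh, BPA minus BPF was -0.31 (-0.73 to 0.11).

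The other EB days hold libraries that the day 6 test did not use. Of the 184 higher genes, 33.7% were higher with bisphenols at day 4, 83.2% at day 9, 75% at day 12 and 60.3% at day 20, against 49.8%, 51.3%, 50% and 46.8% of all genes. Of the 115 lower genes, 69.6% were lower at day 4, 66.1% at day 9, 47.8% at day 12 and 43.5% at day 20. In the fit over 32 libraries, 71 of the 184 were called higher and 3 lower at day 9, where 8.09% of all genes were called, and 49 of the 115 were called lower and 6 higher. At day 4, with 0.708% of genes called, 1 of the 184 was called higher and 1 lower. At day 12, with 18% of genes called, 74 of the 184 were called higher and 15 lower, and 35 of the 115 lower and 43 higher. At day 20, with 18.1% called, it was 47 higher and 19 lower of the 184, and 16 lower and 34 higher of the 115.

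T had at most 0.24 FPKM in any day 4 library, with bisphenols or DMSO. At day 9 it had 23.31 FPKM with BPA, 21.23 with BPF and 18.64 with BPS, against 8.13 FPKM with DMSO, and at day 12 6.35, 5.72 and 2.61 FPKM, against 1.30 FPKM with DMSO. Shh had 74.02, 62.79 and 49.13 FPKM at day 9, against 32.13 FPKM with DMSO, and the bisphenol libraries stayed above DMSO at day 20 with 4.12, 4.22 and 4.72 FPKM, against 1.49 FPKM. Cer1 was at most 1.70 FPKM in every library of day 9. Wnt8b had 2.56, 1.88 and 1.42 FPKM at day 9, against 11.20 FPKM with DMSO. From day 4 to day 9, 46.2% of the higher and 57.4% of the lower genes had a log2 difference of 1 or more in mean level, against 12.5% of all genes.

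**Figure D5:**
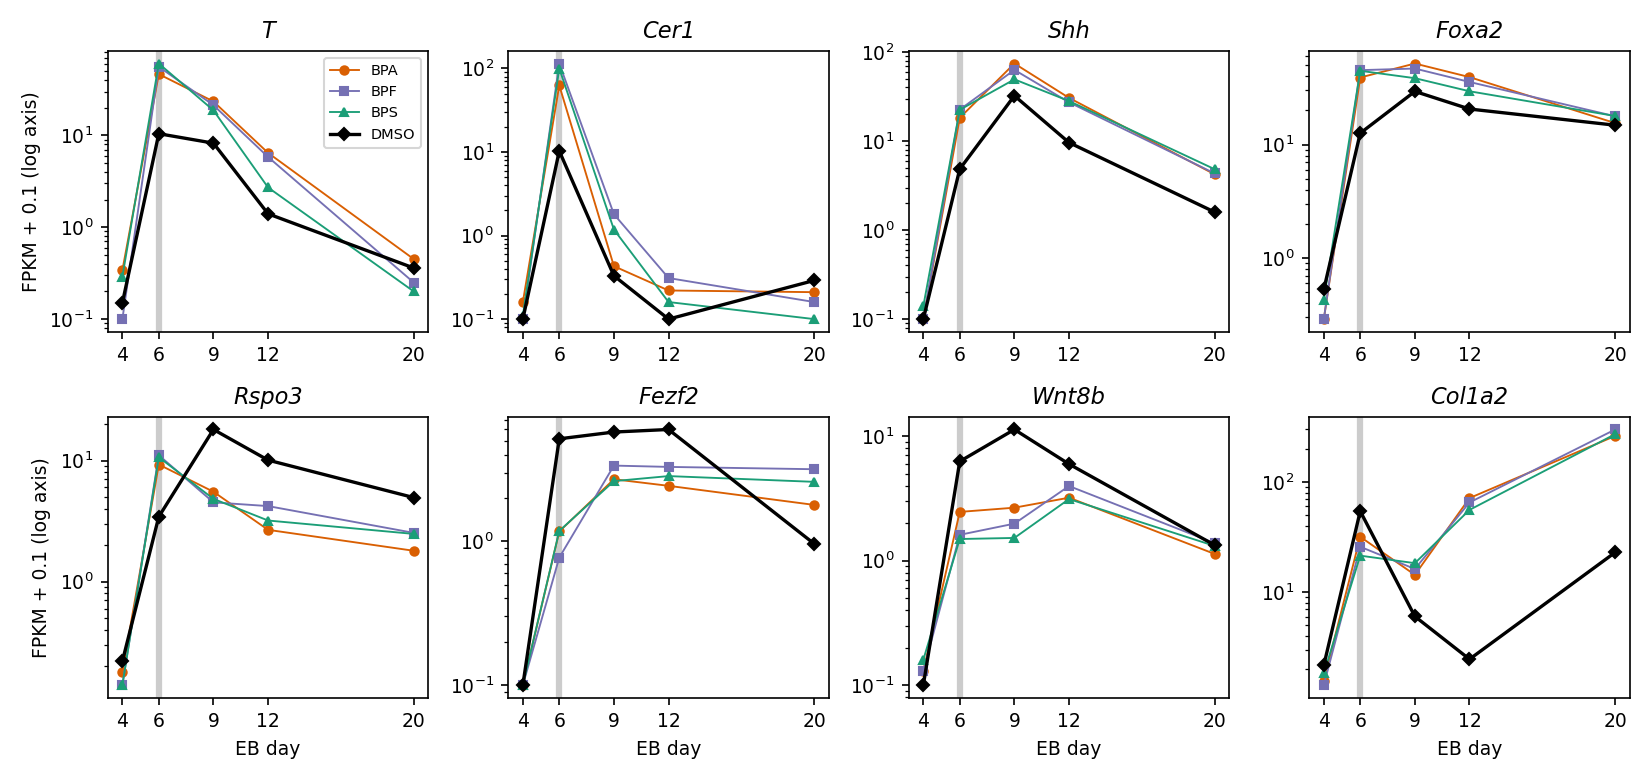
FPKM + 0.1 on a log axis over EB days 4, 6, 9, 12 and 20 in the BPA, BPF, BPS and DMSO libraries for 8 genes, with day 6 shaded. T, Shh and Foxa2 are above DMSO from day 6 to day 12; Rspo3 and Col1a2 change sides between day 6 and day 9.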

How the data were processed

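RNA-seq was measured in J1 EBs, with Trizol extraction, an RNeasy Plus clean-up and library preparation at BGI, per the labels' protocols. Per the submitters' processing notes the authors used Bowtie2, HISAT and RSEM with build mm10, whose roles and versions are not given in the sources used here. The authors deposited expected counts (estimated reads per gene, not whole for all genes) and FPKM. Genes not listed for a library were set to 0, and the lowest FPKM above 0 was 0.01. Of 20612 Entrez genes listed, 20551 were matched to RefSeq by ID, 9 by transcript and 52 not at all.

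Rounded expected counts were tested with edgeR 4.0.16 in R 4.3.3 (quasi-likelihood, TMM, adjusted p under 0.05). Genes needed 1 CPM in at least 1 of the 4 libraries. The class test had 2 residual degrees of freedom, the 32-library fit (stage by class) 16 and the compound fit 14, with a lone library taken to vary as the rest do. SE and intervals (95%) come from the F value, and counting intervals cover counting error only. Log2 differences per compound used a prior count of 1. Named genes are the 12 largest called changes per direction with at least 5 FPKM, all bisphenols on 1 side and no gene models, plus up to 5 called members of each list. Alternatives were RLE, library totals, filters, DESeq2 1.42.0, limma 3.58.1 on log2 FPKM and leaving out each library. Members and lists were chosen with earlier results of these data known. Tests were checked on simulated data. A few genes of the lists are not reported here.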

Additional observations from a re-analysis of the deposited data

Results flagged for a closer look

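The bisphenol effect differed between day 6 and day 9 for genes named above, by a test of the difference itself (an interaction in the edgeR fit over 32 libraries, in which 1.07% of genes differed, with 1 DMSO library at each day). Values are the log2 effect at day 6 minus that at day 9, and no explanation was tested. Most of these genes were named for their day 6 values, which this test uses again.

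Rspo3 differed by 3.50 ± 0.30 (adjusted p = 2.3e-07), being higher by 1.59 at day 6 and lower at day 9, at -1.90. Col1a2 and Col1a1 differed by -2.50 and -2.64, being lower at day 6 and higher at day 9. The day 6 effect was above that at day 9 for Lhx1 (3.91), Lgr5 (2.83), Trh (2.16), Dll3 (2.03), Sox17 (2), Eomes (1.90), Fzd5 (1.61), Shh (1.19) and Foxa2 (1.14). At day 9 the effect itself was below 0 for Dll3 (-0.73), Eomes (-0.28) and Lhx1 (-0.19), and above 0 for the others. The hedgehog genes Gli1 (1.32), Ptch1 (0.78) and Scube1 (-1.55) also differed. So did Edn1 (-2.07), Cyp1b1 (-1.72), Cxcl12 (-1.67), Ahr (-1.47), Chac1 (1.29), Dusp4 (1.17), Nnat (0.97) and Cdh2 (0.72). Cyp1b1 and Ahr were not past the threshold at day 6.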

How the results depend on the processing

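The count of 299 genes (184 higher, 115 lower) was within 1.5 times with RLE factors (294), library totals (315), a filter of 5 CPM (294), 1 CPM in 3 libraries (296), DESeq2 (248) and the 32-library fit (435). It was 54 (37 higher, 17 lower) with limma on log2(FPKM + 1), 78 (58 higher, 20 lower, 74.4% higher) on log2(FPKM + 0.1), and 0 (0 higher, 0 lower) with no filter, where the smallest adjusted p was 0.088. Leaving out 1 bisphenol library gave 47 to 1336 calls (28 to 834 higher, 19 to 502 lower), with 410 without BPF, and 241 to 589 in the 32-library fit (157 to 369 higher, 84 to 220 lower). Leave-one-out and unfiltered 32-library fits (400 calls) were chosen after seeing the data. The DMSO library cannot be left out. Of 102 called named genes 18 were lost in the 32-library fit, 20 with DESeq2, 72 without BPS, 71 and 64 with limma (FPKM + 1 and + 0.1) and all 102 with no filter, and none turned direction. Only uncalled receptors reversed: Nr1i3 (0.13) was -0.10 with limma on log2(FPKM + 0.1) and -0.78 to 0.48 leaving out a library (-0.79 without BPS in the 32-library fit), and Esrrg (-0.02) was -0.37 to 0.39 (0.37 without BPF in the 32-library fit). With EB libraries only, 1 gene was called for BPA minus BPF, 1 for BPA minus BPS and 2 over all pairs (4, 3 and 7 before). No paired analysis was possible because the labels give no replicate numbers and each treatment has 1 library at day 6.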

Other observations

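Imprinted genes were split, with 4 higher and 2 lower of 27 tested. Nnat (neuronatin) had 311.57, 330.83 and 365.95 FPKM with BPA, BPF and BPS, against 164.98 FPKM with DMSO (log2 change 1.03 ± 0.10, edgeR adjusted p = 0.0015). Peg3, a zinc finger factor, had 93.47, 113.96 and 124.40 FPKM, against 59.26 FPKM with DMSO. Mest, a hydrolase-like gene, had 470.37, 362.35 and 433.76 FPKM, against 728.97 FPKM with DMSO (log2 change -0.80 ± 0.11, edgeR adjusted p = 0.0053).

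Of 22 integrated stress response genes tested, 4 were higher and 0 lower. Trib3 had 4.99, 5.97 and 6.22 FPKM with BPA, BPF and BPS, against 2.17 FPKM with DMSO, and Chac1 had 8.88, 10.16 and 8.58 FPKM, against 4.06 FPKM with DMSO. Atf4, the factor that drives both genes, had an adjusted p of 0.036, and 0.12 in the 32-library fit. Psmb8, an immunoproteasome subunit, had 16.49, 18.39 and 15.92 FPKM, against 8.52 FPKM with DMSO. It was the only call among 19 interferon-type and immunoproteasome genes tested. Of the 19, 10 had an unadjusted p under 0.05 by edgeR, against 14% of all genes. All 3 bisphenol libraries were above DMSO for 14 of the 19 and below it for 2, against 30.9% and 29% of all genes. Of 18 motile cilia genes tested 3 were higher (Foxj1, Pifo and Cfap126) and 0 lower, and Cfap126 had 6.48, 9.00 and 8.38 FPKM with BPA, BPF and BPS, against 2.74 FPKM with DMSO. Of 21 p53 target and apoptosis genes 2 were lower, the kinase gene Plk2 with 19.73, 17.89 and 16.13 FPKM, against 26.80 FPKM with DMSO, and the nuclease gene Aen with 51.33, 49.45 and 46.73 FPKM, against 64.38 FPKM with DMSO. Without the BPS library 1 imprinted gene and 0 genes of the stress response, cilia, p53 and immunoproteasome lists were called. In the hypoxia, cholesterol and cell cycle lists edgeR called 0 of 27, 24 and 29 genes tested, with 2, 2 and 3 at an unadjusted p under 0.05, and DESeq2 called 0. Among all genes edgeR called 2.18%, and 14% had an unadjusted p under 0.05. The cell cycle list had a median log2 change of -0.07. All 3 bisphenol libraries were below DMSO for 18 of its 29 genes and above it for 3, against 29% and 30.9% of all genes.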
